A study of Mus musculus with 6 samples.

Results

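Of the 32285 genes in each count table, 10 were followed here, chosen by symbol: H2-Aa, H2-Ab1 and H2-Eb1, Cd74, Ciita, H2-DMa, H2-DMb1, H2-DMb2, H2-Oa and H2-Ob. They encode the classical MHC class II chains, their chaperone, the transactivator of class II genes, and the H2-M and H2-O proteins that control peptide loading. The 6 libraries came from right lungs of 6 male hCTLA4 mice, given as 12 weeks old, 1 library per mouse, all of them carrying humanized CTLA4 (from genOway). Every mouse, controls included, received bleomycin into the oropharynx at 1.25 U/kg in 2 doses 2 weeks apart, which injures the lung and leads to fibrosis. Treatment began on day 21 after the last bleomycin dose and ran for 4.5 weeks. In it 3 mice received an IgG1 isotype antibody and 3 received ipilimumab, an antibody against human CTLA4, at 5 mg/kg. No lung without bleomycin was part of the comparison.

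MHC class II molecules are pairs of an α and a β chain that show peptides from the endocytic pathway to CD4+ T cells. In the endoplasmic reticulum the pair binds the invariant chain Cd74, whose remnant is later exchanged for peptide with the help of H2-M, while H2-O restrains H2-M. The transactivator Ciita is recruited to a shared promoter module, and its own activity largely sets which cells express the whole set. B cells, dendritic cells and many macrophages express class II constitutively. Alveolar type 2 (AT2) cells and some endothelial cells can also carry it.

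Of the 10 genes, 8 lie inside the MHC on chromosome 17 (GENCODE annotation, GRCm38), between H2-Oa (chr17:34092340-34095234) and H2-Eb1 (chr17:34305867-34316674). H2-Aa (chr17:34282744-34287823) is on the minus strand, and the other 7 of these are on the plus strand. Ciita is at chr16:10480059-10528418. RefSeq promoter windows of 300 bases (250 before and 50 after the start, GRCm38.p6) were matched by symbol for 7 of the 10 genes, all but H2-Ab1, Cd74 and Ciita. Of these windows, 6 stretches are shown because the genes differed in whether the letters searched for both motifs of the module were matched. In 4 stretches the X and Y letters given below matched, and in those of H2-Aa and H2-Oa the Y letters alone. The motifs, whose letters were chosen after these sequences had been read, were searched on both strands and did not overlap. The X motif was ATGATGC, a core of the X box, and the Y motif GATTGG, and matches are in capitals, each line being written 5′ to 3′ along the gene.
H2-Aa, chr17:34287857-34287927, minus strand: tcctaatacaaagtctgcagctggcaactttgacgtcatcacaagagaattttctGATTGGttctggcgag
H2-Eb1, chr17:34305773-34305822, plus strand: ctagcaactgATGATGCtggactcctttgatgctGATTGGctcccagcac
H2-DMb1, chr17:34153094-34153144, plus strand: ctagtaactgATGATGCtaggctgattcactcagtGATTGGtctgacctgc
H2-DMb2, chr17:34145123-34145173, plus strand: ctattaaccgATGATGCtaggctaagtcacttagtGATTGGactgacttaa
H2-Oa, chr17:34092280-34092350, plus strand: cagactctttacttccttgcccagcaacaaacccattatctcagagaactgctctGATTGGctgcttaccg
H2-Ob, chr17:34238815-34238862, plus strand: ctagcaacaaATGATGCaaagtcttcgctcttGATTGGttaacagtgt

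The X motif was found for 4 of the 7 genes, H2-Eb1, H2-DMb1, H2-DMb2 and H2-Ob, and in 808 of all 32851 promoter windows (2.46%). All 7 genes held the Y motif, in 7 of their 8 windows. It is common, being present in 5292 windows (16.1%). For H2-DMa the match began at -199 from the start, and for the others between -91 and -35. Both motifs stood together in 112 windows of 32851 (0.341%), those of the 4 genes named among them. From the first base of X to the first base of Y the distance was 25 bases for H2-DMb1 and H2-DMb2, 24 for H2-Eb1 and 22 for H2-Ob. The windows of H2-Aa, H2-Oa and H2-DMa held no match to these X letters. Other forms of the X box were not searched for, so an absence of the box is not shown.

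Cells were assigned to 7 marker gates by genes outside the 10, each gate needing 3 of 8 markers and 2 more markers than any other lineage. The gates held 8565 B cells (1188 to 2031 per mouse), 181 dendritic cells (18 to 49), 94 interstitial macrophages (6 to 23), 2557 alveolar macrophages (222 to 656), 167 AT2 cells, 968 endothelial cells (82 to 261) and 5092 T cells. T cells, which in mice do not express class II, serve as a low reference. The 8 B cell markers summed to 6657 to 7359 CPM (UMI counts per 1000000 UMIs of the gate) in the B gate. In the dendritic gate they summed to 2.24 to 24.97 CPM. Because the gates were made with such markers, these sums are no separate support for the labels. The AT2 gate was uneven, with 4, 6 and 0 cells in the IgG1 mice and 145, 7 and 5 in the ipilimumab mice. In the ipilimumab 1 mouse 134 of its 145 AT2 cells had been called by expression profile rather than by UMI total, with a median of 1040 UMIs.

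The libraries held 37666042 to 48612412 UMIs, and 24258 cells were used (3268 to 4348 per mouse). The ipilimumab 1 library stood apart, with 22056 barcodes of 100 or more UMIs against 4834 to 6230 in the others and 78.9% of its UMIs in called cells against 92.4 to 93.1%. In all, 62 cell barcodes occurred in more than 1 library. Values below are UMIs of a gene over all UMIs of a gate's cells in a mouse, as CPM. Each UMI marks 1 molecule read at its 3′ end, so values of different genes are comparable without correction for length. In such sums, fewer RNA molecules per cell and fewer cells that carry the RNA cannot be told apart.

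The chains H2-Aa, H2-Ab1 and H2-Eb1 ran together across all gates, highest in dendritic cells. H2-Aa, the I-A α chain, was at 5523, 6129 and 4664 CPM in the dendritic cells of IgG1 mice 1 to 3, and at 6519, 4987 and 6894 CPM in those of ipilimumab mice 1 to 3. In B cells it was at 2833, 2784 and 2587 CPM in the IgG1 mice and at 2752, 3109 and 3187 CPM in the ipilimumab mice. The mice hardly varied in the B gate, every dendritic value was above every B cell value, and the treatment groups overlapped in both gates. In interstitial macrophages H2-Aa was at 5370, 5490 and 1879 CPM in IgG1 mice and at 7849, 4340 and 4515 CPM in ipilimumab mice. The lowest of these, IgG1 mouse 3, rested on 6 cells. The highest, ipilimumab mouse 1, came from 19 cells with a median of 2383 UMIs, 12 of them called by expression profile. By their medians the gates stood in the order dendritic (5826 CPM), interstitial macrophage (4943), B (2808), AT2 (991), alveolar macrophage (202), endothelial (125) and T (20.2). Ranges over mice overlapped between dendritic cells and interstitial macrophages, interstitial macrophages and B cells, alveolar macrophages and endothelial cells, and endothelial and T cells, so those neighbours were not separated by the spread.

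**Figure D1:**
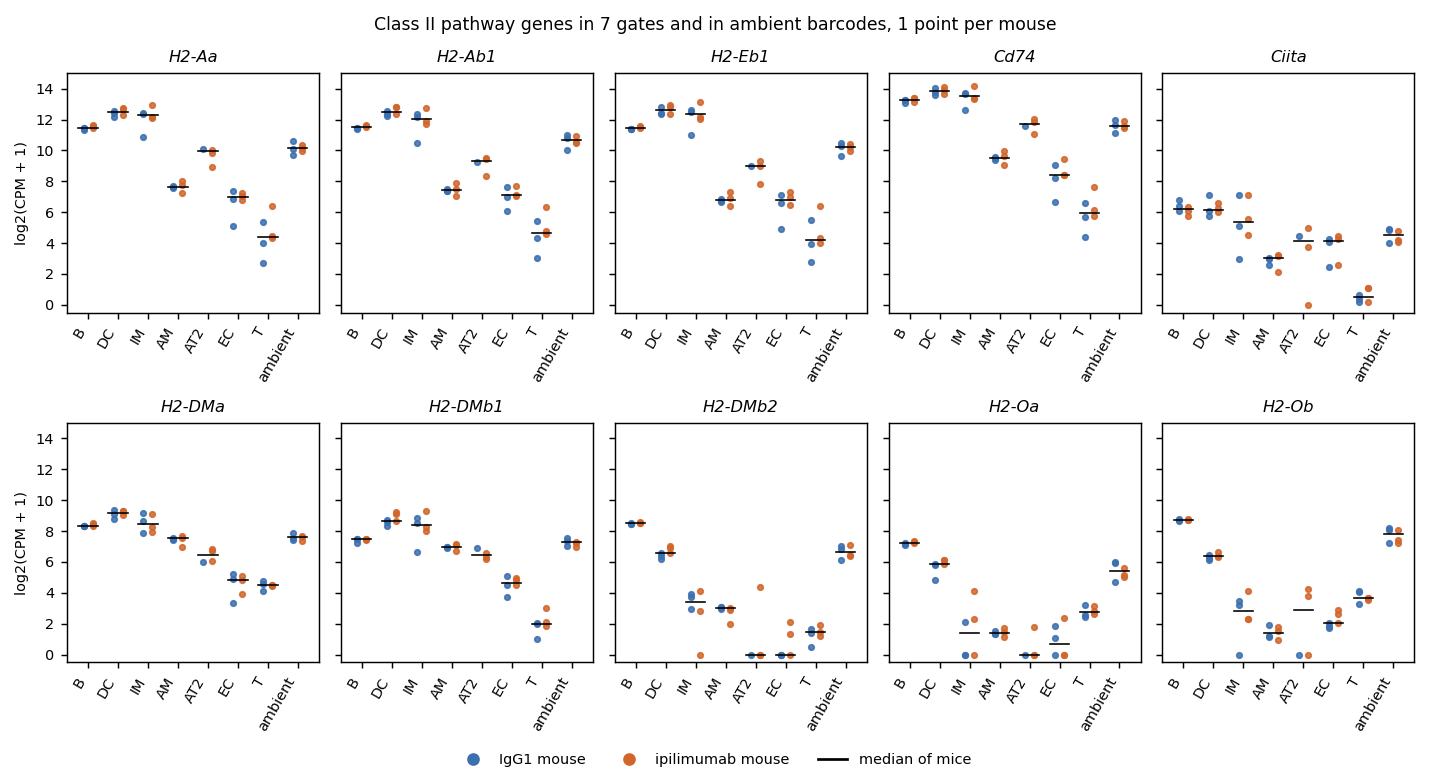
Level of each gene, as log2(CPM + 1) of UMIs summed per mouse, in 7 gates (DC, dendritic; IM, interstitial macrophage; AM, alveolar macrophage; EC, endothelial) and in ambient barcodes. Blue points are IgG1 mice, orange points ipilimumab mice, black bars medians of mice, and sums of fewer than 5 cells are left out. The first 4 genes peak in dendritic cells, while H2-DMb2, H2-Oa and H2-Ob peak in B cells at medians of 364, 150 and 413 CPM.

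Cd74, the invariant chain, was the most abundant member in each gate. Its level in B cells was 9899, 9669 and 8611 CPM in IgG1 mice and 9100, 10789 and 10757 CPM in ipilimumab mice. In dendritic cells it was 14297, 17218 and 12137 CPM, and 15358, 12896 and 18040 CPM, in the same order. The ratio of Cd74 to H2-Aa was 3.31 to 3.495 in B cells, 2.36 to 2.81 in dendritic cells and 3.51 to 3.83 in alveolar macrophages, so B and dendritic ranges did not overlap. H2-Ab1 and H2-Aa, the partners of I-A, stood near 1 to 1, with a median ratio of 1.03 in both B and dendritic cells.

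Ciita was a low message everywhere. It was at 83.6, 66.6 and 108 CPM in the B cells of IgG1 mice and at 80.7, 65.7 and 53.2 CPM in those of ipilimumab mice. Dendritic cells held 53.7 to 137 CPM (24 to 83 UMIs per mouse), overlapping the B cell range, and interstitial macrophages 6.93 to 137 CPM on 1 to 33 UMIs. Its median was 17.0 CPM in endothelial cells (3 to 22 UMIs per mouse) and 16.9 in AT2 cells (0 to 30.5 CPM over mice). It was 7.05 in alveolar macrophages and 0.404 in T cells, where no mouse had more than 10 UMIs.

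The peptide-loading genes split in 2 directions. H2-DMa, the H2-M α chain, and H2-DMb1, one of its β chains, were highest in dendritic cells, at medians of 585 and 409 CPM against 323 and 179 in B cells. H2-DMb2, the other β chain, was at 353, 358 and 355 CPM in the B cells of IgG1 mice and at 369, 385 and 373 CPM in those of ipilimumab mice, and at 73.2 to 133 CPM in dendritic cells. The ratio of H2-DMb1 to H2-DMb2 was accordingly 0.419 to 0.505 in B cells and 3.37 to 6.53 in dendritic cells, with no overlap over mice. These β genes are near copies: 92 of 451 windows of 50 bases (20.4%) in the last 500 bases of the longest H2-DMb1 transcript also occurred in H2-DMb2 transcripts, and 0 of 451 the other way, so part of the H2-DMb1 signal could not be placed uniquely. The H2-O chains H2-Oa and H2-Ob were at medians of 150 and 413 CPM in B cells and 56.4 and 80.7 CPM in dendritic cells. In interstitial macrophages H2-Oa had 0 to 2 and H2-Ob 0 to 3 UMIs per mouse.

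Dendritic cells differed from B cells in 9 of the 10 genes, by edgeR's quasi-likelihood test on the sums with mouse as a block (called at a Benjamini-Hochberg adjusted p under 0.05 and a log2 difference over 0.3). Higher were 6 genes, where 30.7% of all 12073 genes tested were, and 3 were lower, where 35.3% were. The median log2 difference was 0.83 over the 10 genes and -0.17 over all genes. H2-Aa was higher by 1.12 on the log2 scale (SE 0.319, adjusted p = 0.00233), H2-Ab1 by 1.12, H2-Eb1 by 1.28, H2-DMa by 0.93 and H2-DMb1 by 1.47. The largest difference was the lower H2-Ob, at -2.22 (SE 0.148, adjusted p = 3.17e-16), followed by H2-DMb2 at -1.74 and H2-Oa at -1.30. Ciita did not pass, at 0.25 (SE 0.231, adjusted p = 0.342). The Cd74 difference of 0.73 (adjusted p = 0.0331) was lost when IgG1 mouse 1, IgG1 mouse 2 or ipilimumab mouse 1 was left out (adjusted p = 0.0792, 0.05345 and 0.0755).

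The largest differences between B cells and interstitial macrophages were in H2-DMb2 and the H2-O genes. B cells were higher in 3 genes (34.2% of genes tested) and lower in 2 (27.7%). H2-DMb2, H2-Oa and H2-Ob were higher in B cells by 5.57, 5.88 and 6.03 on the log2 scale, the last with SE 0.273 and adjusted p = 3.5e-21. In interstitial macrophages all 3 were near the floor, at 0 to 16.1 CPM per mouse, so these sizes rest on few UMIs there. Such genes could pass the count filter through the B cell sums alone, so the number 3 is no support by itself. H2-DMb1 was lower in B cells by 0.91 and H2-Eb1 by 0.83 (adjusted p = 0.0326), the latter lost without IgG1 mouse 1, IgG1 mouse 2 or ipilimumab mouse 1 (adjusted p = 0.111, 0.0697 and 0.128). H2-Aa, at -0.68 (SE 0.320, adjusted p = 0.0634), passed without IgG1 mouse 3 (-0.90, adjusted p = 0.0126) or ipilimumab mouse 3 (-0.75, adjusted p = 0.0432). H2-Ab1, at -0.43, passed without IgG1 mouse 3 (-0.66, adjusted p = 0.0458), and Ciita, at 0.43, without IgG1 mouse 1 (0.86, adjusted p = 0.0413).

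The macrophage gates lay far apart. Interstitial macrophages were higher than alveolar macrophages in 8 genes, where 15.9% of genes tested were, and lower in 0. Among the 8 was H2-Ob (2.08 on the log2 scale), near the floor at a median of 6.13 CPM in interstitial macrophages, on the few UMIs given above. The differences were large for H2-Aa (4.62, SE 0.369, adjusted p = 3.8e-13), H2-Ab1 (4.60), H2-Eb1 (5.59), Cd74 (4.05) and Ciita (3.20), and smaller for H2-DMa (1.18) and H2-DMb1 (1.52). Accordingly H2-Aa stood at 8.21 to 18.3 times H2-DMa in interstitial macrophages and at 1.05 to 1.26 times in alveolar macrophages. Alveolar macrophages thus kept H2-DMa and H2-DMb1 at medians of 182 and 122 CPM beside H2-Aa at 202. Against T cells, alveolar macrophages were higher in 8 genes (34% of genes tested), with H2-DMb1 at 5.00, Cd74 at 3.06, H2-DMa at 2.80 and H2-Aa at 2.59 on the log2 scale. They were lower in 2 (42.9%), H2-Oa and H2-Ob, which were at medians of 1.65 and 1.60 CPM in alveolar macrophages and 5.77 and 11.7 CPM in T cells.

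AT2 cells carried the class II chains well below the dendritic level, and endothelial cells less again. H2-Aa in AT2 cells was at 1091 CPM in IgG1 mouse 2 and at 917, 494 and 1064 CPM in ipilimumab mice 1 to 3, with 825 CPM on 4 cells in IgG1 mouse 1. Against T cells AT2 cells were higher in 8 genes (24.5% of genes tested) and lower in 0. Among them were Cd74 at 5.27 (SE 0.386, adjusted p = 1.3e-14), H2-Aa at 4.78, H2-DMb1 at 4.67, H2-Ab1 at 4.08, H2-Eb1 at 3.86 and H2-DMa at 2.06. Ciita, at 4.82, had a wide error (SE 1.13) and a level of 0 to 30.5 CPM in the AT2 sums fitted. The eighth, H2-DMb2, rested on 8 UMIs, all of them in ipilimumab mouse 1. That library's AT2 sum also held B cell markers at 378 CPM, against 31.8, 79.2 and 90.9 CPM in the other AT2 sums and 6657 or more in B cells, and their part in the result was not tested. Airway secretory markers summed to 63164 and 154265 CPM in the AT2 gate of ipilimumab mice 2 and 3, against 519 and 469 in the other sums, so those cells were not free of airway transcripts. Interstitial macrophage markers were at 0 to 18.3 CPM there.

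Endothelial cells were above T cells in 6 genes (36.6% of genes tested) and below in 2 (35%). The higher ones were Ciita (4.34, SE 0.554, adjusted p = 6.8e-09), H2-DMb1 (2.63), Cd74 (2.08), H2-Ab1 (1.98), H2-Aa (1.79) and H2-Eb1 (1.65). H2-DMa did not differ beyond the spread (-0.05, SE 0.239, adjusted p = 0.867). AT2 cells were above endothelial cells in 7 genes (16.9% of genes tested) and below in 0. The differences were 3.19 for Cd74, 2.99 for H2-Aa, 2.11 for H2-DMa and 2.04 for H2-DMb1. H2-DMb2, among the 7 at 3.47, rested on the same few UMIs of ipilimumab mouse 1 as against T cells. Ciita did not pass (0.48, SE 0.836, adjusted p = 0.695). The endothelial values were low in IgG1 mouse 3 for every chain: H2-Aa was at 117, 168 and 33.5 CPM in IgG1 mice and at 134, 150 and 109 CPM in ipilimumab mice.

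At the level of single cells the chains were nearly uniform in B cells and split in macrophages. The summed UMIs of H2-Aa, H2-Ab1, H2-Eb1 and Cd74 exceeded 50 of every 10000 UMIs in 97.9 to 99.1% of B cells per mouse and in 80 to 91.8% of dendritic cells. Among interstitial macrophages 64 of 94 cells passed that level and the rest lay mostly near 0: in IgG1 mouse 2 the 25th percentile was 1.91 while the median was 393. The share over 50 was 86.7, 66.7 and 16.7% in the IgG1 mice (1 of 6 cells in the last) and 79.0, 50 and 69.6% in the ipilimumab mice. Of the alveolar macrophages 4.37 to 12.1% passed, of the endothelial cells 0 to 7.66% and of the T cells 0 to 0.63%.

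**Figure D2:**
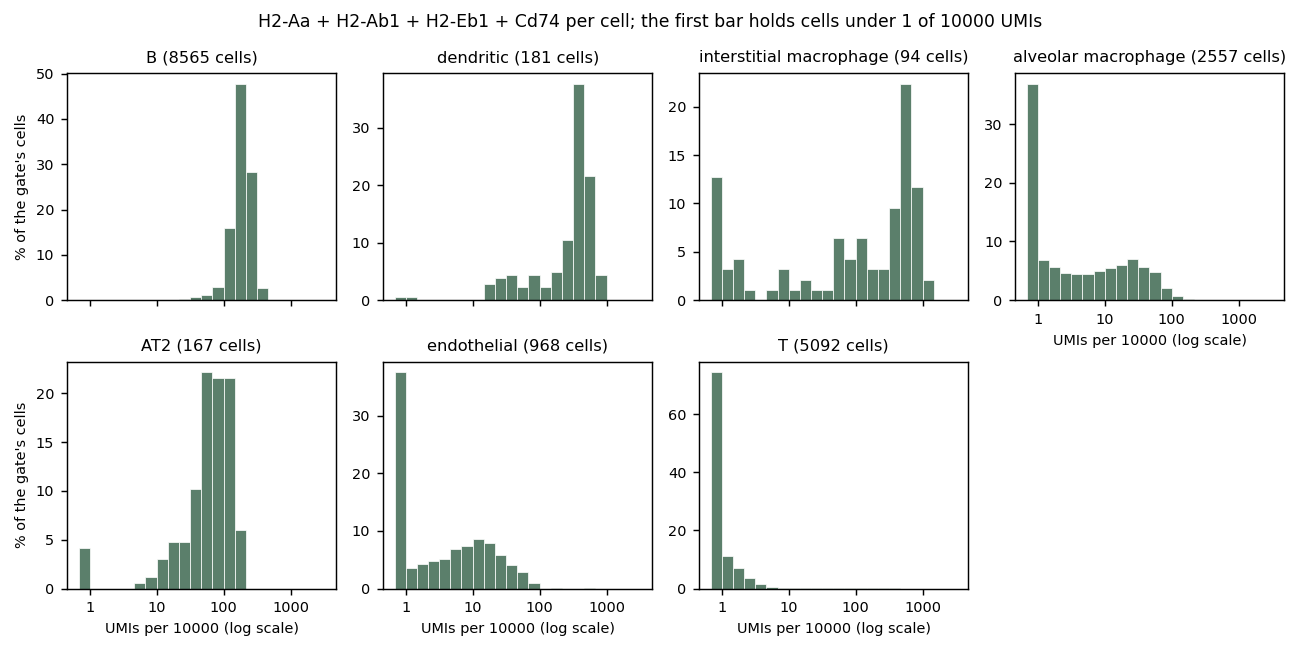
Summed UMIs of H2-Aa, H2-Ab1, H2-Eb1 and Cd74 per 10000 UMIs of a cell (x axis, log scale) against the percent of the gate's cells (y axis, scaled per panel), all mice together, the first bar holding cells under 1. B cells form 1 peak, interstitial macrophages have cells under 1 beside a main group over 100, and most T cells are in the first bar.

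With every cell thinned to 1000 UMIs, H2-Aa was detected in 88.9 to 92.6% of B cells, 80 to 89.8% of dendritic cells, 33.3 to 88.2% of interstitial macrophages, 12.3 to 17.8% of alveolar macrophages, 16.7 to 60.8% of AT2 cells and 2.20 to 15.8% of endothelial cells. The T cell share, the reference of cells that should lack the gene, was 0.692 to 2.33%, and the lowest endothelial share lay within it. Shallower cells were left out, 68 of the AT2 cells and 113 of the endothelial cells among them. Without thinning, median depths per mouse ranged from 2925 to 6087 UMIs in endothelial cells, 5199 to 6626 in B cells and 7902 to 10093 in T cells, and 98.1 to 99.2% of B cells held a UMI of H2-Aa.

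Within the dendritic gate 3 marker subgates were compared, a split made after the levels were seen. They held 56 cDC1, 67 cDC2 and 54 migratory dendritic cells, named after conventional type 1 and type 2 cells and the Ccr7+ cells that leave for lymph nodes. In cDC2, 2 of the 10 genes were higher than in cDC1 (7.56% of 2700 genes tested) and 0 lower (7.19%). They were H2-DMb2, by 2.11 on the log2 scale (SE 0.320, adjusted p = 0.00141), and H2-Oa, by 1.67 (SE 0.384, adjusted p = 0.0138), each higher in 6 of 6 mice. Over all mice H2-DMb2 had 252 UMIs in cDC2 and 51 in cDC1, and H2-Oa 145 and 44. Passing the count filter was possible through the cDC2 sums alone, so the number 2 is no support by itself. H2-Oa was tested in 4 of the 6 fits that left out 1 mouse. H2-DMb2 was at 159, 135 and 157 CPM in the cDC2 of IgG1 mice and at 242, 240 and 146 CPM in those of ipilimumab mice, against 74.6, 43.7 and 39.9 and 20.4, 28.5 and 41.2 CPM in cDC1. The cell types did not overlap for this gene. H2-Aa differed by 0.24 (adjusted p = 0.187), which passed without IgG1 mouse 2 (0.34, adjusted p = 0.0471), and Cd74 by 0.24 (adjusted p = 0.0416), under the fold threshold.

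Migratory dendritic cells held less than cDC2 of the 7 genes that passed the count filter (21.5% of 2456 genes were lower), each in 6 of 6 mice. A gene could pass that filter through the cDC2 sums alone, so the number 7 is no support by itself. By size of the estimate, H2-DMb1 came first at -4.24 (SE 0.430, adjusted p = 2.3e-05) and H2-DMa next at -3.69 (SE 0.436, adjusted p = 5.7e-05). H2-Ab1 was at -2.80, H2-DMb2 at -2.02, H2-Aa at -1.88, H2-Eb1 at -1.75 and Cd74 at -1.45. H2-Aa was at 1362, 4022 and 1988 CPM in the migratory cells of IgG1 mice and at 352, 2023 and 3370 CPM in those of ipilimumab mice, against 6469 to 8790 CPM in cDC2. The lowest, ipilimumab mouse 1, also held B cell markers at 101 CPM. Ciita, H2-Oa and H2-Ob were too low for the test, with 19, 14 and 7 UMIs in the migratory cells of all mice and 144, 145 and 114 in cDC2.

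Within the endothelial gate, also split after the levels were seen, general capillary cells held more class II RNA in sum than aerocytes. These are the 2 capillary types of the alveolus, 473 and 287 cells here. The 5 genes that passed the count filter were higher in general capillary cells (24.5% of 5502 genes were), each in 6 of 6 mice, and a gene could pass it through the general capillary sums alone. The differences were Cd74 by 3.15 (SE 0.309, adjusted p = 9.3e-09), H2-DMb1 by 3.13, H2-Aa by 2.98, H2-Ab1 by 2.83 and H2-Eb1 by 2.57. H2-Aa was at 188, 337 and 98.7 CPM in the general capillary cells of IgG1 mice and at 192, 261 and 160 CPM in those of ipilimumab mice. In aerocytes it was at 16.3, 6.40 and 7.21 CPM and at 62.8, 19.3 and 24.6 CPM. Ciita had 55 UMIs in general capillary cells and 0 in aerocytes over all mice, and H2-DMb2 0 and 2. Cells in which the chains and Cd74 together exceeded 50 of every 10000 UMIs were few in both subgates. They were 13 of 473 general capillary cells (0 to 6.85% per mouse) and 9 of 287 aerocytes (0 to 11.5%). These 9 aerocytes were all from ipilimumab mouse 1. The median cell of a mouse held 1.97 to 13.2 of every 10000 UMIs in general capillary cells and 0 to 1.79 in aerocytes.

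**Figure D3:**
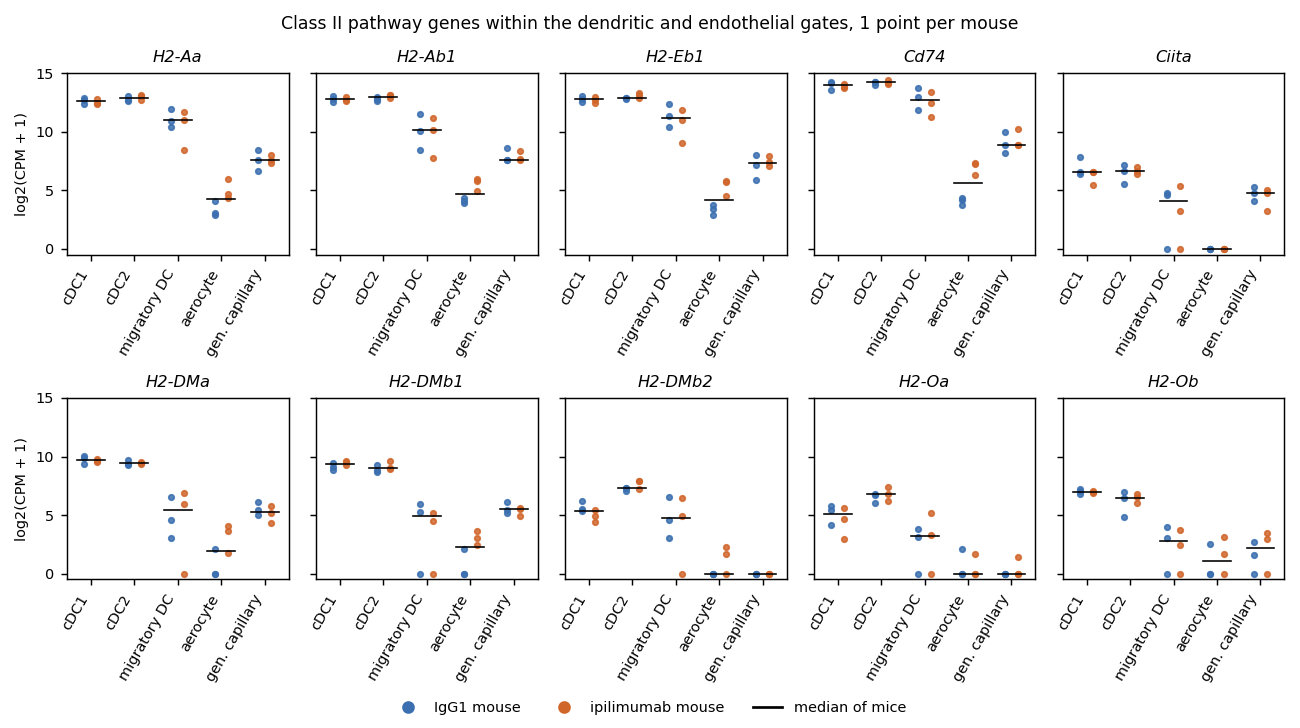
Level of each gene, as log2(CPM + 1) of UMIs summed per mouse, in the 3 dendritic and 2 endothelial subgates, with points and bars as in the plot of all gates. Migratory dendritic cells lie below cDC1 and cDC2 for H2-DMa and H2-DMb1, and aerocytes below general capillary cells for the chains, Cd74 and Ciita.

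Ambient barcodes, those under 100 UMIs, held class II RNA at levels between those of B and endothelial cells. H2-Aa was at 1557, 851 and 1081 CPM in the ambient RNA of IgG1 mice and at 1321, 1019 and 1156 CPM in that of ipilimumab mice, on 2605 to 4218 UMIs. Genes that peaked in B cells were there too, with medians of 222 CPM for H2-Ob and 101 for H2-DMb2, the latter overlapping the dendritic range. The ratio of H2-DMb1 to H2-DMb2 stood at 1.10 to 1.93. The share of a gate's RNA that was ambient was estimated from the marker list of a foreign lineage that was lowest relative to ambient. It was at most 1.75% in any sum. As the lowest of many lists, the estimate can fall under the true share, and it was 0 in some sums. In endothelial cells it was 0.25 to 0.49% in IgG1 mice and 0.85 to 1.5% in ipilimumab mice. It would there give H2-Aa 2.70 to 19.8 CPM, against 33.5 to 168 measured. In T cells it would give H2-Aa 3.24 to 10.4 CPM, against 5.48 to 84.8 measured, the highest in ipilimumab mouse 3. Endothelial B cell markers were at 12.9 to 56.0 CPM with a like order of groups.

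None of the 10 genes passed the test for treatment in any of the whole gates tested. The question was whether the RNA for antigen presentation differed after CTLA4 blockade, and edgeR's quasi-likelihood test called 0 genes of 10 tested in B cells (0% of 11641 genes), 0 of 10 in dendritic cells (0% of 5600), 0 of 7 in interstitial macrophages (0% of 4076) and 0 of 10 in alveolar macrophages (0% of 11843). It called 0 of 6 in AT2 cells (0.266% of 3004), where 1 IgG1 mouse stood against 3, and 0 of 7 in endothelial cells (0.0126% of 7957). Over all genes an unadjusted p under 0.05 was reached by 785 genes in B cells, 359 in dendritic cells, 177 in interstitial and 448 in alveolar macrophages, 184 in AT2 cells and 841 in endothelial cells. DESeq2 called 6, 2, 0, 1, 0 and 42 genes in these gates, none of them among the 10. The median log2 fold change over the members tested was 0.10 in B, 0.14 in dendritic, 0.34 in interstitial macrophage, 0.05 in alveolar macrophage, 0.07 in AT2 and 0.31 in endothelial cells, and over all genes between -0.02 and 0.11.

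**Figure D4:**
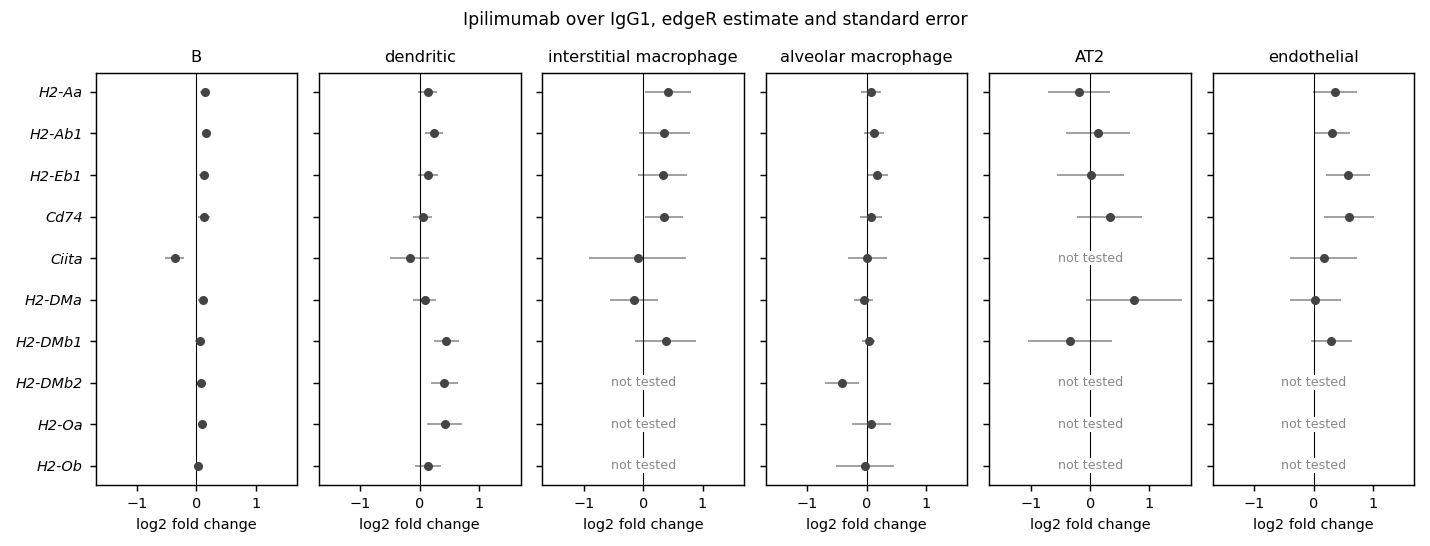
Log2 fold change of ipilimumab over IgG1 (x axis) for each gene (y axis) in 6 gates, as the edgeR estimate with its standard error, with genes under the count filter written as not tested. Most estimates in B cells lie slightly right of 0, with Ciita left of it at -0.37, and error bars are wide in AT2 cells and interstitial macrophages.

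In B cells, with the narrowest errors, H2-Ab1 was at 0.17 (SE 0.0795, unadjusted p = 0.0549 and adjusted p = 0.741), H2-Aa at 0.14, H2-Eb1 at 0.13 and Cd74 at 0.12. Ciita was at -0.37 (SE 0.163, unadjusted p = 0.0424 and adjusted p = 0.733). Its B cell values, given above, overlapped between groups, and without the filter on low counts it passed (adjusted p = 0.0331). In 3 of the 10 genes, H2-Ab1, H2-Eb1 and H2-DMb2, every ipilimumab mouse was above every IgG1 mouse, each with p = 0.1 in an exact two-sided permutation test, the smallest that 3 against 3 can give. Such separation in this direction occurred in 6.04% of the genes tested in B cells. H2-DMa, H2-DMb1, H2-DMb2, H2-Oa and H2-Ob were at 0.11, 0.07, 0.08, 0.10 and 0.04.

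In dendritic cells H2-DMb1 was at 0.45 (SE 0.210, unadjusted p = 0.0580 and adjusted p = 0.780), with 322, 414 and 380 CPM in IgG1 mice and 538, 405 and 614 CPM in ipilimumab mice, which overlap. Migratory dendritic cell markers in this gate summed to 3373 to 4682 CPM in IgG1 and 1608 to 2899 CPM in ipilimumab mice, without overlap, and migratory cells held less H2-DMb1 than cDC2. The part of this in the dendritic values was not tested. H2-DMb2 and H2-Oa were both at 0.42, H2-Ab1 at 0.24, and H2-Aa, H2-Eb1 and H2-Ob at 0.14. Cd74 was at 0.05, H2-DMa at 0.08 and Ciita at -0.17. In the other gates H2-Aa was at 0.43 (SE 0.388) in interstitial macrophages, 0.07 in alveolar macrophages, -0.19 in AT2 cells and 0.36 (SE 0.365) in endothelial cells. Cd74 was at 0.34, 0.08, 0.33 and 0.60 (SE 0.426) in the same gates. None of these passed. The study's list of genes that differed in its own AT2 cluster gave Cd74, H2-Aa, H2-Eb1 and H2-Ab1 as higher with ipilimumab. That cluster was defined otherwise than the AT2 gate, and the reason for the difference was not tested. The treatment effect differed between dendritic and B cells in 0 of 10 genes (0% of 11842 genes) and between interstitial and alveolar macrophages in 0 of 9 (0.0271% of 11076). Leaving out 1 mouse at a time, ipilimumab mouse 1 included, gave no call for any of the 10 genes in a whole gate, but AT2 cells could not be fitted without IgG1 mouse 2.

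Aerocytes, a subgate compared after the levels were seen, gave 1 call. Cd74 was at 19.6, 12.8 and 16.8 CPM in the aerocytes of IgG1 mice, on 6, 2 and 7 UMIs, and at 164, 147 and 76.4 CPM in those of ipilimumab mice, on 73, 38 and 31 UMIs. The groups did not overlap, as for 8.49% of the 5521 genes tested in this direction, and the difference was 2.88 on the log2 scale (SE 0.380, adjusted p = 0.00116), with 0.38% of genes called higher and 0.0362% lower. Cd74 and H2-Ab1 were the only members that passed the count filter, and both met it through the ipilimumab sums, so a gene equally low in both groups would not have been tested. Without IgG1 mouse 3 the adjusted p was 0.0577, and without ipilimumab mouse 1 the estimate was 2.62. The aerocytes in which the chains and Cd74 together exceeded 50 of every 10000 UMIs were all in ipilimumab mouse 1, 9 of its 78. Ambient RNA at the endothelial gate's share would give 19.4, 8.24 and 8.09 CPM in IgG1 and 56.5, 23.9 and 33.7 CPM in ipilimumab mice. Less these amounts the values were 0.131, 4.56 and 8.72 against 107, 123 and 42.7 CPM. That share was estimated for the whole gate, not for aerocytes, and can be too low. B cell markers were at 13.1, 0 and 14.4 CPM in the aerocytes of IgG1 mice and at 65.0, 73.3 and 4.93 CPM in those of ipilimumab mice, and their part in the result was not tested. H2-Ab1, on 5, 3 and 6 UMIs in IgG1 and 25, 16 and 12 in ipilimumab mice, was at 1.56 (adjusted p = 0.129), and passed without ipilimumab mouse 3 (1.85, adjusted p = 0.0465). In general capillary cells 0 of 7 genes were called (0% of 5965 genes). The difference between the subgates in their treatment effect was not tested.

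A wider list of 27 genes of the pathway was followed in the same fits. None was called for treatment in any gate, with 27 tested in B cells, 23 in dendritic, 21 in interstitial macrophage, 25 in alveolar macrophage, 12 in AT2 and 19 in endothelial cells. Nearest to a call was Ctss in endothelial cells, at 2.25 on the log2 scale (SE 0.409, unadjusted p = 9.0e-05 and adjusted p = 0.0664, edgeR's quasi-likelihood test). Between gates, dendritic cells were higher than B cells in 15 of the 27, where 30.7% of all genes tested were. They were lower in 3, where 35.3% were. Of the 8 processing genes, proteases and their partners in endosomes, 7 were higher. Ifi30, the thiol reductase of antigen processing, was at a median of 868 CPM in dendritic and 162 in B cells, and Ctss, the protease that trims the invariant chain, at 578 and 281. March1, the ubiquitin ligase that removes class II from the surface, was lower, at 53.6 against 198 CPM, whereas Cd83, which opposes it, was higher, at 1253 against 560. The costimulatory genes Cd80 and Cd40 were higher, with Cd40 at 148 against 48.4 CPM and Cd80 at 472 CPM in dendritic cells.

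Of the 8 processing genes 6 had their highest median in a macrophage gate, while Ifi30 was highest in dendritic cells and Ctsh in AT2 cells. Interstitial macrophages were higher than alveolar macrophages in 15 of the 27 and lower in 2, with percents here and below giving the share of all genes tested (15.9% and 16.6%), and with Ctss at 3238 against 1899 CPM, Cd86 at 763 against 92.0 and Cd83 at 625 against 55.8. B cells were higher than interstitial macrophages in 10 (34.2%) and lower in 10 (27.7%), the latter including 7 of the 8 processing genes. Endothelial cells were higher than T cells in 8 (36.6%) and lower in 7 (35%), both shares of the 27 being under those of all genes. Higher there was Irf1, an interferon-induced factor that acts on a Ciita promoter, at 861 against 179 CPM. AT2 cells were higher than T cells in 6 (24.5%), near the share of all genes, and lower in 10 (26.9%), with Ctsh, which also processes surfactant protein, at 589 CPM. They were higher than endothelial cells in 4 (16.9%) and lower in 9 (22.7%), and alveolar macrophages were higher than T cells in 13 (34%) and lower in 11 (42.9%). The Rfx and Nfy genes, whose products bind the X and Y boxes, were low throughout, between 2.68 and 134 CPM by their medians.

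**Figure D5:**
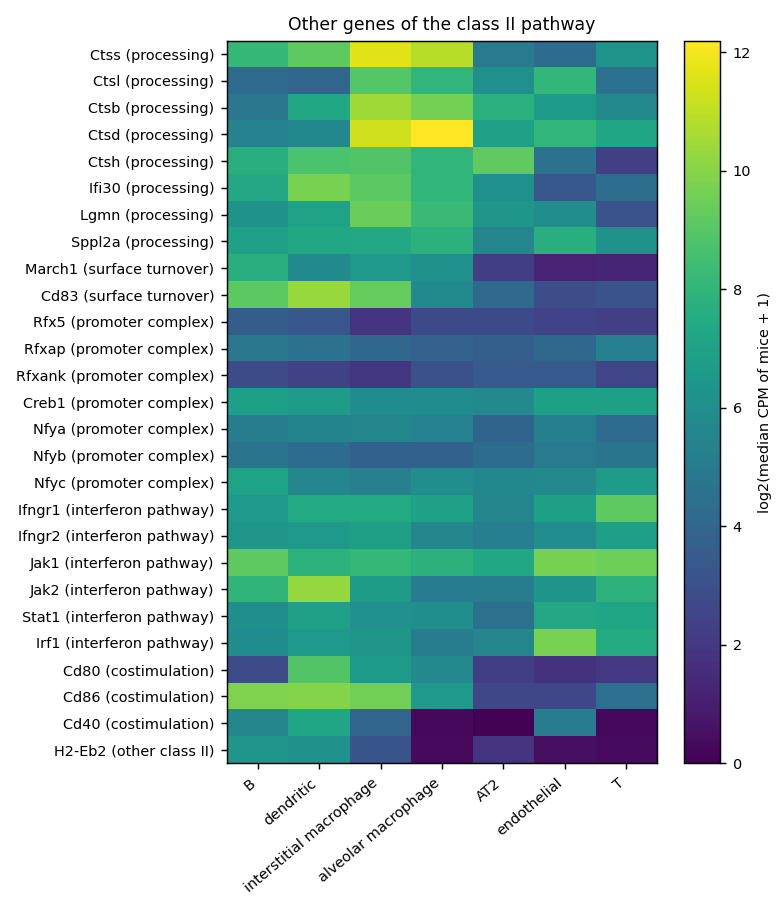
Median over mice of each of the 27 wider pathway genes (rows, with role) in 7 gates (columns), as log2(CPM + 1) in color. Ctsd and Ctss are brightest in the macrophage gates, Cd80 and Jak2 in dendritic cells and Irf1 in endothelial cells.

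The genes most like H2-Aa across gates, by Pearson's r of log2(CPM + 10) over 40 gate and mouse sums and among 6420 candidates outside the members and markers, were Lat2 (0.903), Cd83 (0.890), Ly86 (0.869), Cd180 (0.860) and Erlin1 (0.860). The sums share libraries and are not independent, so no p is given. Within the 10 genes r with H2-Aa was 0.995 for H2-Ab1, 0.994 for Cd74, 0.992 for H2-Eb1, 0.930 for H2-DMb1, 0.908 for H2-DMa and 0.854 for Ciita. It was 0.643 for H2-DMb2, 0.545 for H2-Oa and 0.527 for H2-Ob, the genes that peaked in B cells. Cd83 shared the dendritic peak of H2-Aa, while Lat2 and Ly86 were highest in interstitial macrophages, at medians of 112 and 320 CPM.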

How the data were processed

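The authors deposited raw UMI counts per gene and barcode for 6 libraries made with the 10x Genomics 3′ v3.1 kit. The submitters' processing notes name Cell Ranger 7.0.0 and mm10, the file headers name Cell Ranger 4, and the study's methods name another version. Cells were called by UMI total (the 99th percentile of the top 5000 barcodes, divided by 10) and by departure from the ambient profile (500 or more UMIs, false discovery rate 0.01), with 200 or more genes and at most 10% mitochondrial UMIs. In each library 90 to 163 likely doublets, scored against simulated ones, were removed. The total of 37666042 to 48612412 UMIs per library limits precision for counting error only.

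Gates took 3 of 8 markers and a lead of 2, thresholds chosen after the cells per gate, but not the members' values, had been seen. UMIs were summed per mouse and gate (5 or more cells) and tested with edgeR 4.0.16 (TMM, filterByExpr, quasi-likelihood F test, Benjamini-Hochberg), called at adjusted p under 0.05 and a log2 fold change over 0.3. Comparisons between gates had mouse as a block, those of treatment none. Replicates were separate mice per the labels. Levels were compared by exact permutation tests over mice. DESeq2 1.42.0, no count filter, a replicate block, other gates, thinning and leaving out each mouse were alternatives, and the scripts were tested on simulated counts. Named were all 10 members, the wider list by its calls, and the 5 genes likest to H2-Aa among those of 50 CPM or more in 1 gate. The members and lists were chosen with earlier results of these data known. H2-Ea, on the wider list, was not in the table.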

Additional observations from a re-analysis of the deposited data

How the results depend on the processing

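Treatment calls over all genes depended on the processing, and calls for the 10 genes hardly did: over 698 refits of a member in a whole gate 1 call arose, Ciita in B cells with no filter on low counts. DESeq2 called 6 genes in B cells, 2 in dendritic cells, 1 in alveolar macrophages, 0 in AT2 cells and 42 in endothelial cells. With no filter on low counts the numbers were 144, 109, 4, 14 and 395 in the same gates and 66 in interstitial macrophages. The replicate block called 1 gene in B cells and 24 in endothelial cells and changed no call for the 10 genes, and no such fit could be made for AT2 cells. The numbers did not pair the mice (correlations of same-numbered deviations from -0.132 to 0.11). In AT2 cells 8 genes became 5 with one marker more, 0 with the UMI threshold alone and 0 with every mouse that had a cell, a setting added after the data were seen. In endothelial cells 1 gene became 0 with doublets kept and 2 with the UMI threshold alone. Leaving out 1 mouse gave 0 to 3 genes in B cells (3 without IgG1 mouse 2), 0 to 3 in interstitial macrophages (3 without ipilimumab mouse 1), 0 to 1 in alveolar macrophages, 8 to 38 in AT2 cells (not fitted without IgG1 mouse 2, 18 without ipilimumab mouse 2, 38 without ipilimumab mouse 3) and 0 to 13 in endothelial cells (13 without any 1 ipilimumab mouse, 0 without IgG1 mouse 1 or 2).

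The sign of an uncalled fold change turned in 62 of the 698 refits, and under at least 1 setting in 30 of the 50 combinations of gene and gate. Over the leaving out of each mouse, H2-DMb1 in B cells ranged from -0.01 to 0.11, and in dendritic cells H2-DMa from -0.042 to 0.265, Cd74 from -0.106 to 0.201 (-0.102 without IgG1 mouse 3) and Ciita from -0.403 to 0.283. Cd74 in interstitial macrophages ranged from -0.023 to 0.545, and in alveolar macrophages H2-Aa from -0.075 to 0.248 and Cd74 from -0.116 to 0.270, the lowest of each without ipilimumab mouse 1. H2-Aa ranged from -0.518 to 0.173 in AT2 cells and from -0.075 (without IgG1 mouse 3) to 0.742 in endothelial cells. Cd74 in AT2 cells went to -0.203 with the UMI threshold alone and H2-Aa in endothelial cells to -0.168 with doublets kept. Between gates, H2-DMa ranged from -0.270 to 0.062 in B cells minus interstitial macrophages and from -0.245 to 0.155 in endothelial minus T cells (0.089 without ipilimumab mouse 3), where DESeq2 gave 0.111. The ipilimumab minus IgG1 share of cells with a UMI went to -2.07 percentage points for H2-Aa in dendritic cells thinned to 500 UMIs and to -0.065 for Cd74 in B cells without thinning. The causes were not tested. Numbers of genes called between gates stayed within 1.5 times. Gates with few cells limit the AT2 and interstitial macrophage results.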
